A study of Mus musculus with 8 samples.

Results

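The genes described here are those of DNA replication and of entry into S phase, in RAW264 macrophages (RAW below) and CT26 colon tumour cells, both established mouse lines. A list of 44 genes was taken: the origin licensing proteins, the replicative helicase, the polymerases with their clamp and clamp loader, and the enzymes that make deoxynucleotides. A further 6 genes on it encode proteins of S phase entry and chromatin assembly. A named probe set was at hand for 43 of them, and Chaf1a is only named here. All 43 lay above the detection floor on all 8 arrays, and they are 43 of the 13196 genes that were tested.

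The RNA of each sample was hybridised to its own Affymetrix array, 8 in all, in 4 groups of 2: RAW co-culture, RAW alone, CT26 co-culture and CT26 alone. In co-culture, RAW cells sat in a transwell insert above CT26 cells in the well, so that soluble molecules passed between them without contact. Per the labels' protocols, 10000 cells of each line were seeded, RAW in 0.5 ml and CT26 in 1.5 ml, inserts were put in place 8 hours later, and the length of co-culture is not given in the sources used here. RAW cells were lysed on the insert and CT26 cells were taken up with trypsin first, and the whole experiment was performed on 2 occasions. The labels name no drug, transgene or mutation in any group. The p-values measure the spread between samples of 2 experiments.

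Before S phase, the origin recognition complex, Cdc6 and Cdt1 load the Mcm2 to Mcm7 ring onto DNA, and Cdc45 and the GINS proteins turn that ring into an active helicase. Primase and the polymerases then copy the strands, held to DNA by the Pcna clamp. Most of these genes are transcribed together late in G1 by E2F factors, once cyclin-dependent kinases have inactivated the retinoblastoma proteins. In a growing culture, their transcript levels therefore tend to follow how many cells are on the way into S phase. In RNA from a whole culture, fewer such cells and less RNA per cell cannot be told apart.

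The lines carried the markers of their labels in part. The 12 macrophage markers tested were all higher in RAW, and the receptor gene Csf1r averaged 14.66 ± 0.02 log2 units in RAW alone and 5.59 ± 0.34 in CT26 alone (SD, n = 2). Epithelial markers were lower in RAW for 3 of 6 tested, among them the intestinal keratin Krt20 with 4.88 ± 0.27 in RAW alone and 11.54 ± 0.01 in CT26 alone. The defining epithelial cadherin gene Cdh1 was below the floor in both lines, at 3.74 ± 0.19 in RAW alone and 3.79 ± 0.09 in CT26 alone. Of 5 tested mesenchymal markers, 4 were lower in RAW, with a median of -6.01 log2 units over the list, and the collagen gene Col1a2 had 6.42 ± 0.13 in RAW alone and 13.55 ± 0.05 in CT26 alone. Lymphoid and endothelial markers gave no call.

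The promoters of the genes were searched for letters that E2F factors are known to bind. Windows from 250 bases before to 50 bases after the start site were taken from RefSeq (build GRCm38.p6) for 35 of the 43 genes, in 41 windows. The motifs, read on both strands, were the 8 E2F-type runs TTTGGCGC, TTTCCCGC, TTTCGCGC, TTTGCCGC, TTTGGCGG, TTTCCCGG, TTTCGCGG and TTTGCCGG. At least 1 motif was found in 15 of the 41 windows, or 36.6%, against 4.51% of all 32851 windows in the table. At least 2 separate sites were found in 14.6% of the genes' windows and 0.268% of all windows. The CCAAT box was found in 61.0% and 37.4%, and the median GC content was 60% and 52.7%. The 15 genes with a motif were Orc1, Cdc6, Cdt1, Mcm3, Mcm5, Mcm6, Mcm7, Gins3, Pola1, Pola2, Pold1, Rfc3, Rpa1, Lig1 and Uhrf1. A match is a run of letters and not a measured binding site. Of the 6 windows with 2 sites, the 4 of the genes with the highest mean level are shown, read 5′ to 3′ on the strand of the gene, to show where these letters lie. Capitals mark the motif letters on either strand, and in Mcm6 TTTGGCGC and TTTCGCGC share bases and were counted as 1 site. The windows are chr5:138171834-138172133 (minus strand) for Mcm7, chr1:128359656-128359955 (minus strand) for Mcm6, chr8:122567765-122568064 (plus strand) for Cdt1 and chr1:20820263-20820562 (minus strand) for Mcm3.
Mcm7: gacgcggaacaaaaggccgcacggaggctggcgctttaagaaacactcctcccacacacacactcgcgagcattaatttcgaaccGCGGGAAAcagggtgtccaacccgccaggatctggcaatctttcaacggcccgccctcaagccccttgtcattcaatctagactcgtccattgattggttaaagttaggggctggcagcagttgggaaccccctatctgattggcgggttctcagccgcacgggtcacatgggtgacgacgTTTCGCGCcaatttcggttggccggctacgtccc
Mcm6: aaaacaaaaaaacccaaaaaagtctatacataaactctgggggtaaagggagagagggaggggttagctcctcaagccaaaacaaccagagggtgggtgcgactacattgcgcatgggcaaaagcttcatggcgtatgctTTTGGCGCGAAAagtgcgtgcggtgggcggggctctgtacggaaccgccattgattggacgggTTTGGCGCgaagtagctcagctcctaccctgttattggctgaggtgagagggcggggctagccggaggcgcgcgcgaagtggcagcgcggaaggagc
Cdt1: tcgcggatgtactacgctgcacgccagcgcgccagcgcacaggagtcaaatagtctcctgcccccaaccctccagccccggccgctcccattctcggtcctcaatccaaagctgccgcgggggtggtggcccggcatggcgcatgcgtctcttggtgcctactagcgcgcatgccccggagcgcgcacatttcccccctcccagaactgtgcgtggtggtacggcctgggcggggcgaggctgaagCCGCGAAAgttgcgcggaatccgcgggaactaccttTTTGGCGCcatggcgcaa
Mcm3: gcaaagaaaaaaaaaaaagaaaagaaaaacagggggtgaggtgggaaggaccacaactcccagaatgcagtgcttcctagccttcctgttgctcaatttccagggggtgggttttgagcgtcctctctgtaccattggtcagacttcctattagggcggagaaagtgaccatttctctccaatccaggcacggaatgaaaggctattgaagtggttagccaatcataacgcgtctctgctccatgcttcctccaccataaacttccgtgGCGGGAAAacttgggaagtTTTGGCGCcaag

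The signals of these genes lay well above the floor in both lines. The median of the genes' means over 8 arrays was 10.66 log2 units, against 8.36 for all tested genes, and single genes lay between 7.41 and 14.16, although a signal also depends on the probes of its gene. They varied about as much over the 8 arrays as other genes, with a median range of 0.71 against 0.77 log2 units. Rrm1, the large subunit of the reductase that makes deoxynucleotides, was the flattest, with a range of 0.11. It had 12.53 and 12.46 in RAW co-culture, 12.55 and 12.53 in RAW alone, 12.48 and 12.58 in CT26 co-culture, and 12.53 and 12.52 in CT26 alone. Here and below, the values of a group are log2 units, the array of the first experiment before that of the second.

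RAW and CT26 differed in single replication genes. Between RAW alone and CT26 alone, 5 of the 43 genes were higher in RAW (Orc1, Gins3, Rpa1, Fen1 and Ccne2) and 2 were lower (Orc2 and Mcm2), by limma at an adjusted p under 0.05. These 7 are 16.3% of the list, whereas 34.6% of all tested genes passed the same test, 17.0% higher and 17.6% lower in RAW. The median difference was 0.085 log2 units over the list and -0.047 over all tested genes, and the median size without sign 0.31 and 0.36. By its brightest probe set, no gene of the list differed by more than 1 log2 unit, and a second probe set of Fen1 gave 1.12. The counts depend on how the shift between experiments is handled, since same-numbered arrays moved together. With the experiment as a block shared by the lines 19 of the 43 were called, 10 higher and 9 lower, against 52.9% of all genes. The calls added were Cdc6, Mcm5, Rfc4, Tyms and Tk1, higher in RAW, and Orc6, Mcm7, Pola1, Prim1, Rpa3, Ccne1 and E2f1, lower in RAW. In what follows, a gene that did not pass is one that did not pass without a block. With a block in each line 24 were called, 14 higher and 10 lower, against 58.6% of all genes. Leaving out each array in turn, the calls of Fen1 and Orc2 held in all 8 fits. Those of Gins3, Mcm2 and Rpa1 were lost in 2 fits each, that of Ccne2 in 3 and that of Orc1 in 5, and the list held 2 calls (without the second CT26 alone array) to 9.

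Between RAW co-culture and CT26 co-culture, 10 genes of the list were higher in RAW and 1 was lower, or 25.6% of the 43. The background was 34.8% of all tested genes, 17.7% higher and 17.0% lower. Orc1, Gins3, Rpa1, Fen1 and Ccne2 were again higher and Orc2 again lower, in the other 4 arrays and with the same estimate of the spread. Cdc6, Rfc4, Tyms, Tk1 and Chaf1b were called higher here, and Mcm2 was not called. With a block, 21 (shared by the lines, 52.1% of all genes) and 24 (per line, 58.0% of all genes) were called. The shared block added Mcm5, Mcm6, Mcm10, Cdc45, Gins1, Pola2, Prim2 and Rpa2, higher in RAW, and Ccne1 and E2f1, lower in RAW. Leaving out single arrays gave 3 calls (without the first RAW co-culture array) to 10. The calls of Orc1 and Fen1 held in all 8 such fits, and that of Tk1 was lost in all 8. Rfc4 and Ccne2 lost theirs in 5 fits each, Gins3 in 4, Cdc6 and Chaf1b in 3 each, and Orc2, Rpa1 and Tyms in 2 each. All 4 RAW arrays lay above all 4 CT26 arrays for 16 genes of the list and below them for 3, which is 44.2% against 49.9% of all tested genes.

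**Figure D1:**
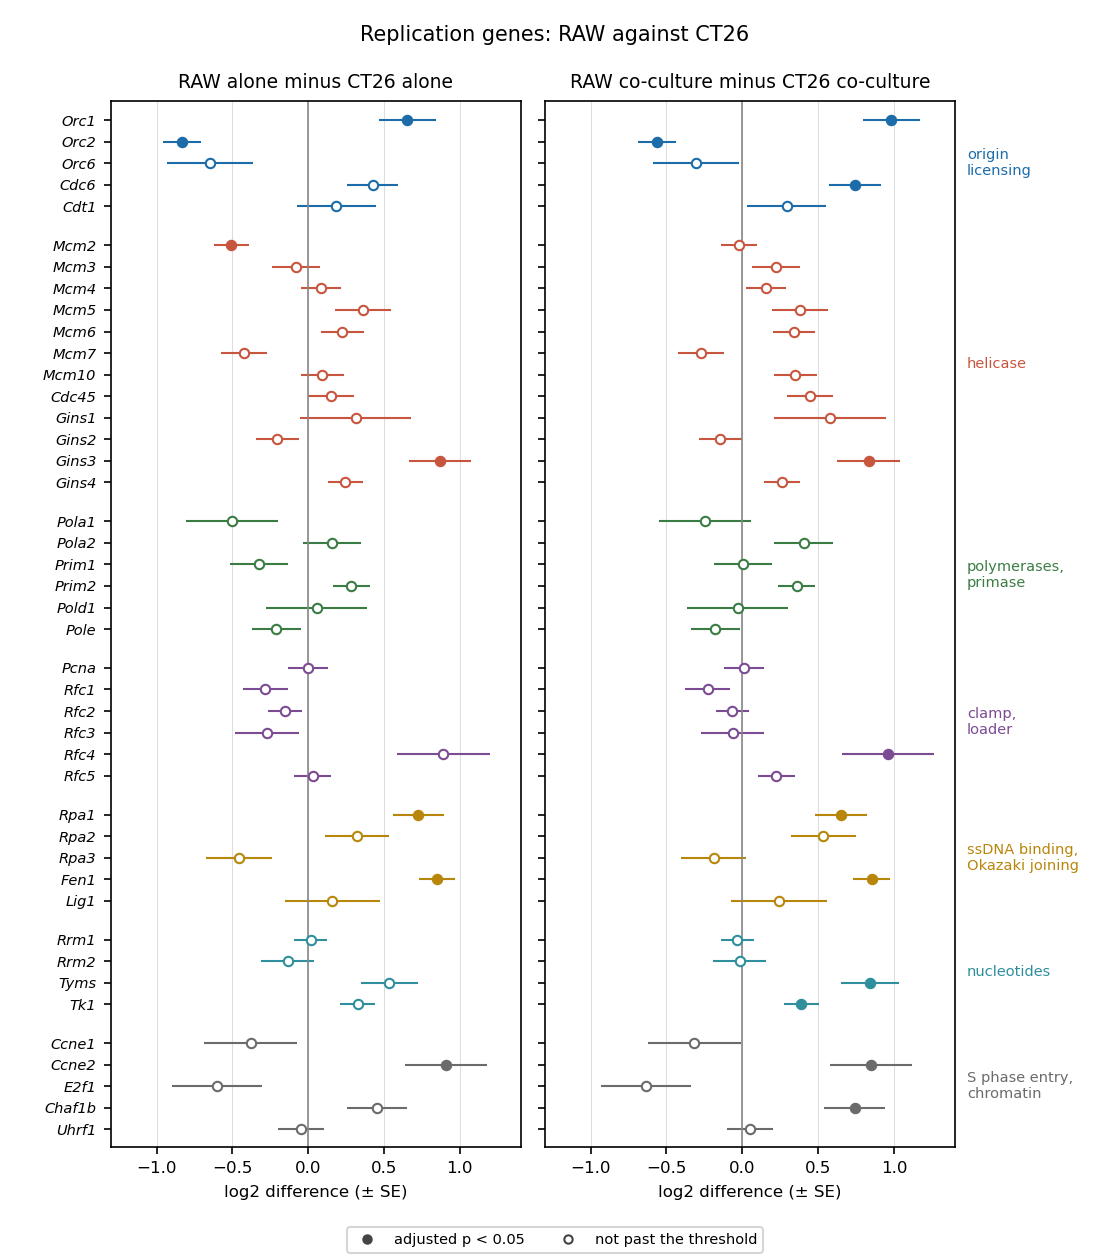
Log2 difference of each of the 43 genes, RAW alone minus CT26 alone on the left and RAW co-culture minus CT26 co-culture on the right. Points are limma estimates with their standard error from 2 arrays per group, filled where the adjusted p was under 0.05, and colours mark the role groups. Filled points stand at 7 genes on the left and 11 on the right, and Orc1 and Orc2, subunits of 1 complex, lie on opposite sides of 0 in both.

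Subunits of the origin recognition complex went in opposite directions. Orc1, its ATPase subunit, had 9.46 and 9.09 in RAW co-culture, 9.12 and 8.69 in RAW alone, 8.34 and 8.25 in CT26 co-culture, and 8.27 and 8.24 in CT26 alone. Every RAW array lay above every CT26 array. Orc1 was higher in RAW by 0.65 ± 0.19 log2 units when grown alone (SE, 1.57-fold, adjusted p = 0.0345) and by 0.98 ± 0.19 in co-culture (1.98-fold, adjusted p = 0.00633). Orc2, a second subunit, had 10.78 and 10.69 in RAW co-culture, 10.68 and 10.45 in RAW alone, 11.27 and 11.33 in CT26 co-culture, and 11.40 and 11.39 in CT26 alone. All RAW arrays lay below all CT26 arrays, with -0.83 ± 0.12 grown alone (adjusted p = 0.00205) and -0.56 ± 0.12 in co-culture (adjusted p = 0.0117). Other probe sets gave the same signs, 0.44 for Orc1 and -0.95 and -0.61 for Orc2 grown alone. Of the other licensing genes, Cdc6, which brings the Mcm ring to the origin, differed by 0.42 ± 0.17 grown alone (adjusted p = 0.102) and was higher in RAW co-culture by 0.75 ± 0.17 (adjusted p = 0.0138). Orc6 differed by -0.65 ± 0.28 grown alone and Cdt1, the partner of Cdc6 in loading, by 0.19 ± 0.26, neither past the threshold.

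Within the helicase, Gins3 was called higher in RAW in both comparisons of the lines. This subunit of the GINS complex had 8.45 and 8.32 in RAW co-culture, 8.97 and 8.35 in RAW alone, 7.49 and 7.62 in CT26 co-culture, and 7.72 and 7.86 in CT26 alone. It was higher in RAW by 0.87 ± 0.21 grown alone (adjusted p = 0.0159) and by 0.83 ± 0.21 in co-culture (adjusted p = 0.019), and a second probe set gave 0.77 and 0.60. The other GINS genes differed by 0.31 ± 0.37 (Gins1), -0.20 ± 0.14 (Gins2) and 0.24 ± 0.12 (Gins4) grown alone, none past the threshold. Mcm2, a subunit of the ring, had 11.65 and 11.62 in RAW co-culture, 11.39 and 11.23 in RAW alone, 11.64 and 11.67 in CT26 co-culture, and 11.76 and 11.88 in CT26 alone. It was lower in RAW alone than in CT26 alone by 0.51 log2 units (-0.51 ± 0.12, adjusted p = 0.0144). In co-culture the difference was -0.02 ± 0.12, and the arrays of the lines overlapped. A second probe set of Mcm2 gave -0.37 grown alone and -0.03 in co-culture. The remaining genes were Mcm3 to Mcm7 of the ring, the activation factor Mcm10 and Cdc45. By their brightest probe sets they lay between -0.42 ± 0.15 (Mcm7) and 0.36 ± 0.19 (Mcm5) grown alone, and none of these 7 passed the threshold. All RAW arrays lay below all CT26 arrays for Mcm7 and above them for Mcm5, Mcm6 and Cdc45. The other probe sets of Mcm7 gave -0.69, -0.58 and -0.58 grown alone.

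Polymerase and primase genes gave no call between the lines without a block, and with a block per line 1 was higher and 2 lower in RAW grown alone and 2 were higher in co-culture. Prim2, the large subunit of primase, had 9.49 and 9.48 in RAW co-culture, 9.65 and 9.45 in RAW alone, 9.06 and 9.20 in CT26 co-culture, and 9.24 and 9.29 in CT26 alone. All RAW arrays lay above all CT26 arrays. The difference of 0.29 ± 0.12 grown alone and 0.36 ± 0.12 in co-culture did not pass (adjusted p = 0.123 and 0.0629, and 0.0614 and 0.0278 with the shared block). For Prim2, other probe sets gave 0.81 and 0.16 grown alone and 0.77 and 0.20 in co-culture. Its catalytic partner Prim1 had 11.30 and 10.89 in RAW co-culture, 11.12 and 10.72 in RAW alone, 11.15 and 11.03 in CT26 co-culture, and 11.30 and 11.18 in CT26 alone. The lines overlapped, and the difference grown alone was -0.32 ± 0.19 (adjusted p = 0.25, and 0.0495 with the shared block). The subunits of polymerase alpha, Pola1 and Pola2, differed by -0.50 ± 0.30 and 0.16 ± 0.19 grown alone (adjusted p = 0.0191 and 0.196 with the shared block). In co-culture Pola2 differed by 0.40 ± 0.19 (adjusted p = 0.158, and 0.00843 with the shared block). The catalytic subunits of the main polymerases, Pold1 and Pole, differed by 0.05 ± 0.33 and -0.21 ± 0.16.

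The clamp itself did not separate the lines, and 1 subunit of its loader did. Pcna, the sliding clamp, differed by 0.00 ± 0.13 grown alone. Rfc4 had 11.10 and 10.46 in RAW co-culture, 11.16 and 10.41 in RAW alone, 10.01 and 9.64 in CT26 co-culture, and 9.98 and 9.81 in CT26 alone. All 4 RAW arrays lay above the CT26 arrays, and the spread within RAW was as wide as 0.75 log2 units. Rfc4 differed by 0.89 ± 0.31 grown alone (adjusted p = 0.0634, and 0.00224 with the experiment as a shared block). It was higher in RAW co-culture by 0.96 ± 0.31 (adjusted p = 0.0491, close to the threshold). A second probe set gave 0.80 and 1.00. By their brightest probe sets, the other loader subunits Rfc1, Rfc2, Rfc3 and Rfc5 lay between -0.28 ± 0.15 and 0.03 ± 0.12 grown alone. None of them passed the threshold. A second probe set of Rfc3 gave -0.57 grown alone, and with a block in each line Rfc3 was called lower in RAW (adjusted p = 0.036). Rfc3 had 10.44 and 10.08 in RAW co-culture, 10.39 and 9.83 in RAW alone, 10.35 and 10.29 in CT26 co-culture, and 10.40 and 10.37 in CT26 alone. Rfc5 had 11.30 and 11.18 in RAW co-culture, 11.14 and 10.99 in RAW alone, 10.95 and 11.08 in CT26 co-culture, and 11.00 and 11.07 in CT26 alone. In both genes the lines overlapped.

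The smallest adjusted p-values of the list, in both comparisons of the lines, belonged to a gene of lagging strand synthesis. Fen1, the nuclease that trims Okazaki fragments, had 12.74 and 12.58 in RAW co-culture, 12.76 and 12.66 in RAW alone, 11.83 and 11.79 in CT26 co-culture, and 11.92 and 11.80 in CT26 alone. The gap between the lines was several times the spread within a group. Fen1 was higher in RAW by 0.85 ± 0.12 grown alone (1.80-fold, adjusted p = 0.00161) and by 0.85 ± 0.12 in co-culture (1.81-fold, adjusted p = 0.00156), with a second probe set at 1.12 and 1.18. Rpa1, the large subunit of the protein that coats single-stranded DNA, had 13.10 and 12.88 in RAW co-culture, 13.30 and 13.08 in RAW alone, 12.48 and 12.20 in CT26 co-culture, and 12.59 and 12.33 in CT26 alone. It was higher in RAW by 0.73 ± 0.17 grown alone (adjusted p = 0.0149) and by 0.65 ± 0.17 in co-culture (adjusted p = 0.0235), with a second probe set at 0.72 and 0.69. Its partners differed in opposite directions. Rpa2 differed by 0.32 ± 0.21 and Rpa3 by -0.46 ± 0.22 grown alone, neither past the threshold (adjusted p = 0.129 and 0.0239 with the shared block). All RAW arrays of Rpa2 lay above all CT26 arrays. In co-culture Rpa2 differed by 0.54 ± 0.21 (adjusted p = 0.0985, and 0.0248 with the shared block). Its second probe set gave 0.52 grown alone and 0.60 in co-culture. Rpa3 had 11.32 and 10.80 in RAW co-culture, 11.08 and 10.69 in RAW alone, 11.37 and 11.12 in CT26 co-culture, and 11.35 and 11.33 in CT26 alone. Lig1, the ligase that joins the fragments, differed by 0.16 ± 0.32.

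**Figure D2:**
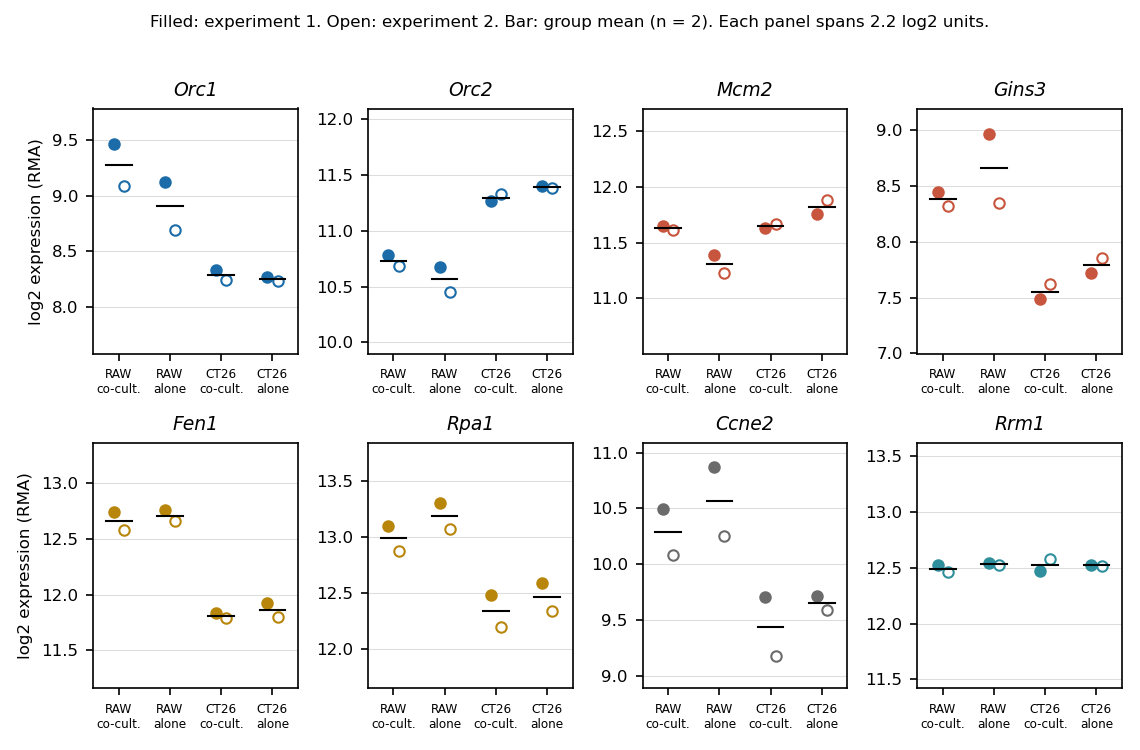
Log2 expression of 8 genes on each of the 8 arrays, by group (RAW co-culture, RAW alone, CT26 co-culture, CT26 alone), filled for the first experiment and open for the second, with a bar at the group mean. Every panel spans the same number of log2 units. The RAW arrays of Orc1, Gins3, Fen1, Rpa1 and Ccne2 lie above the CT26 arrays, those of Orc2 below, and Rrm1 keeps within 0.11 log2 units.

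Of the deoxynucleotide genes, Tk1 and Tyms were called in co-culture. Tk1, thymidine kinase, had 11.89 and 11.77 in RAW co-culture, 11.78 and 11.80 in RAW alone, 11.39 and 11.49 in CT26 co-culture, and 11.41 and 11.52 in CT26 alone. It differed by 0.33 ± 0.11 grown alone (adjusted p = 0.0688) and was higher in RAW co-culture by 0.39 ± 0.11 (adjusted p = 0.0378), a call that was lost without any 1 of the 8 arrays. Tyms, thymidylate synthase, had 7.85 and 7.77 in RAW co-culture, 7.91 and 7.51 in RAW alone, 6.79 and 7.14 in CT26 co-culture, and 7.29 and 7.05 in CT26 alone. Its call in co-culture (0.84 ± 0.19, adjusted p = 0.013) rests on 1 of 4 probe sets. The next brightest, close to the floor with a mean of 5.59 over the 8 arrays, gave -0.40. The last 2 were below the floor, so the direction of Tyms is uncertain. Rrm1 and Rrm2, the subunits of ribonucleotide reductase, differed by 0.02 ± 0.11 and -0.14 ± 0.17 grown alone.

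The cyclin E genes, whose products start S phase with Cdk2, differed in opposite directions between the lines, 1 of them past the threshold. Ccne2 had 10.49 and 10.08 in RAW co-culture, 10.87 and 10.25 in RAW alone, 9.71 and 9.17 in CT26 co-culture, and 9.72 and 9.59 in CT26 alone. It was higher in RAW by 0.91 ± 0.27 grown alone (1.88-fold, adjusted p = 0.039) and by 0.85 ± 0.27 in co-culture (adjusted p = 0.0495, at the threshold). Only 1 probe set stands for it. Ccne1 differed by -0.38 ± 0.31 grown alone, and E2f1, the factor that switches on many of these genes, by -0.60 ± 0.30. Neither passed in the fit without a block, and both did with the shared block (adjusted p = 0.022 and 0.00164). Chaf1b, a subunit of the chaperone that lays histones on new DNA, had 10.12 and 9.89 in RAW co-culture, 9.89 and 9.70 in RAW alone, 9.05 and 9.48 in CT26 co-culture, and 9.17 and 9.52 in CT26 alone. It differed by 0.45 ± 0.20 grown alone (adjusted p = 0.128) and was higher in RAW co-culture by 0.74 ± 0.20 (adjusted p = 0.0265). A second probe set, close to the floor with a mean of 5.56, gave -0.06 and -0.25. Uhrf1, which carries DNA methylation through replication, had 11.23 and 10.93 in RAW co-culture, 11.25 and 10.97 in RAW alone, 11.01 and 11.04 in CT26 co-culture, and 11.20 and 11.12 in CT26 alone, and the lines overlapped.

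Co-culture changed no replication gene past the threshold in RAW cells. In RAW co-culture against RAW alone, limma called 0 of the 43 genes, with 0.250% of all tested genes called (33 genes). At an unadjusted p under 0.05 it gave 1 gene of the list, Mcm2, and 694 of all. With the experiment as a shared block and as a block in each line 0 of the 43 were called, with backgrounds of 1.11% and 3.56%. The smallest adjusted p in those fits was 0.256 (Mcm2) and 0.0674 (Orc1). The median log2 change was 0.083 over the list and 0.008 over all tested genes, 27 of the 43 changes were above 0, and none was larger than 1.29-fold. The 95% confidence intervals of all 43 changes lay within 1 log2 unit of 0, and the widest bounds were -0.93 and 1.00. These intervals are of the fit without a block, in which the median SE was 0.170. With a block in each line it was 0.0892.

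At the positive end in RAW stood licensing and helicase genes, none past the threshold. Orc1 changed by 0.37 ± 0.19 (0.34 and 0.40 in the first and second experiment), Mcm2 by 0.32 ± 0.12 (0.26 and 0.39), Mcm3 by 0.29 ± 0.16 and Cdc45 by 0.27 ± 0.15. A change above 0 was found for 5 of 5 licensing genes, 8 of 12 helicase genes, 3 of 6 polymerase and primase genes, 4 of 6 clamp and loader genes and 3 of 5 genes of single-strand binding and Okazaki joining. It was found for 2 of 4 deoxynucleotide genes, 2 of 5 genes of S phase entry and chromatin assembly, and 6857 of the 13196 tested genes. The negative end held Gins3 (-0.27 ± 0.21), Ccne2 (-0.27 ± 0.27) and Rpa1 (-0.20 ± 0.17). Of the genes with the largest statistic in the other role groups, Prim1 changed by 0.18 ± 0.19, Rfc5 by 0.18 ± 0.12, Tyms by 0.10 ± 0.19 and Chaf1b by 0.21 ± 0.20. Paired by experiment, the list's median was 0.069 in the first experiment and 0.105 in the second. Fits without 1 array break this pairing, and in them the sign was not constant. Without the second RAW alone array the median was -0.04, without the first 0.15, and without the first RAW co-culture array -0.03. The arrays of the 2 conditions did not overlap for 7 genes higher in co-culture (Orc2, Mcm2, Mcm3, Mcm7, Mcm10, Cdc45 and Rfc5) and for 2 lower (Gins4 and Rrm1). That is 20.9% of the list and 26.5% of all tested genes.

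In CT26 cells the changes were smaller still. In CT26 co-culture against CT26 alone limma called 0 of the 43 genes, and the background was 0% of all tested genes in the fit without a block and in both blocked fits. At an unadjusted p under 0.05 there were 0 genes of the list and 107 of all. The median change was -0.08 over the list and -0.01 over all tested genes. Changes lay between -0.24 (Gins3) and 0.04 (Gins2), 38 of the 43 below 0, as were 7221 of the 13196 tested genes. In both experiments 23 were below 0, or 53.5% of the list, against 30.1% of all tested genes. Without any 1 array the median stayed between -0.10 and -0.07. The 2 conditions did not overlap for 11 genes, all lower in co-culture, which is 25.6% of the list and 21.0% of all tested genes. Those 11 were Orc2, Cdc6, Mcm2, Gins3, Gins4, Prim1, Prim2, Rfc3, Rpa2, Rrm2 and Uhrf1.

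Among the genes with the largest statistic of their role group, Mcm2 changed in CT26 by -0.16 ± 0.12, Uhrf1 by -0.14 ± 0.15, Prim2 by -0.14 ± 0.12, Tyms by -0.20 ± 0.19 and Orc2 by -0.10 ± 0.12. Rpa1 changed by -0.12 ± 0.17 (-0.11 and -0.14 in the first and second experiment). Without the second co-culture array or the first array of cells grown alone, which breaks the pairing, its change was 0.02 and 0.00. Rfc3 changed by -0.06 ± 0.21. In the fit without a block, no interval of the 43 genes reached past 1 log2 unit except that of Gins1, whose lower bound was -1.02. Paired by experiment, Gins1 changed in CT26 by -0.11 and -0.18. The SE of its change was 0.37 without a block and 0.082 with a block in each line.

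**Figure D3:**
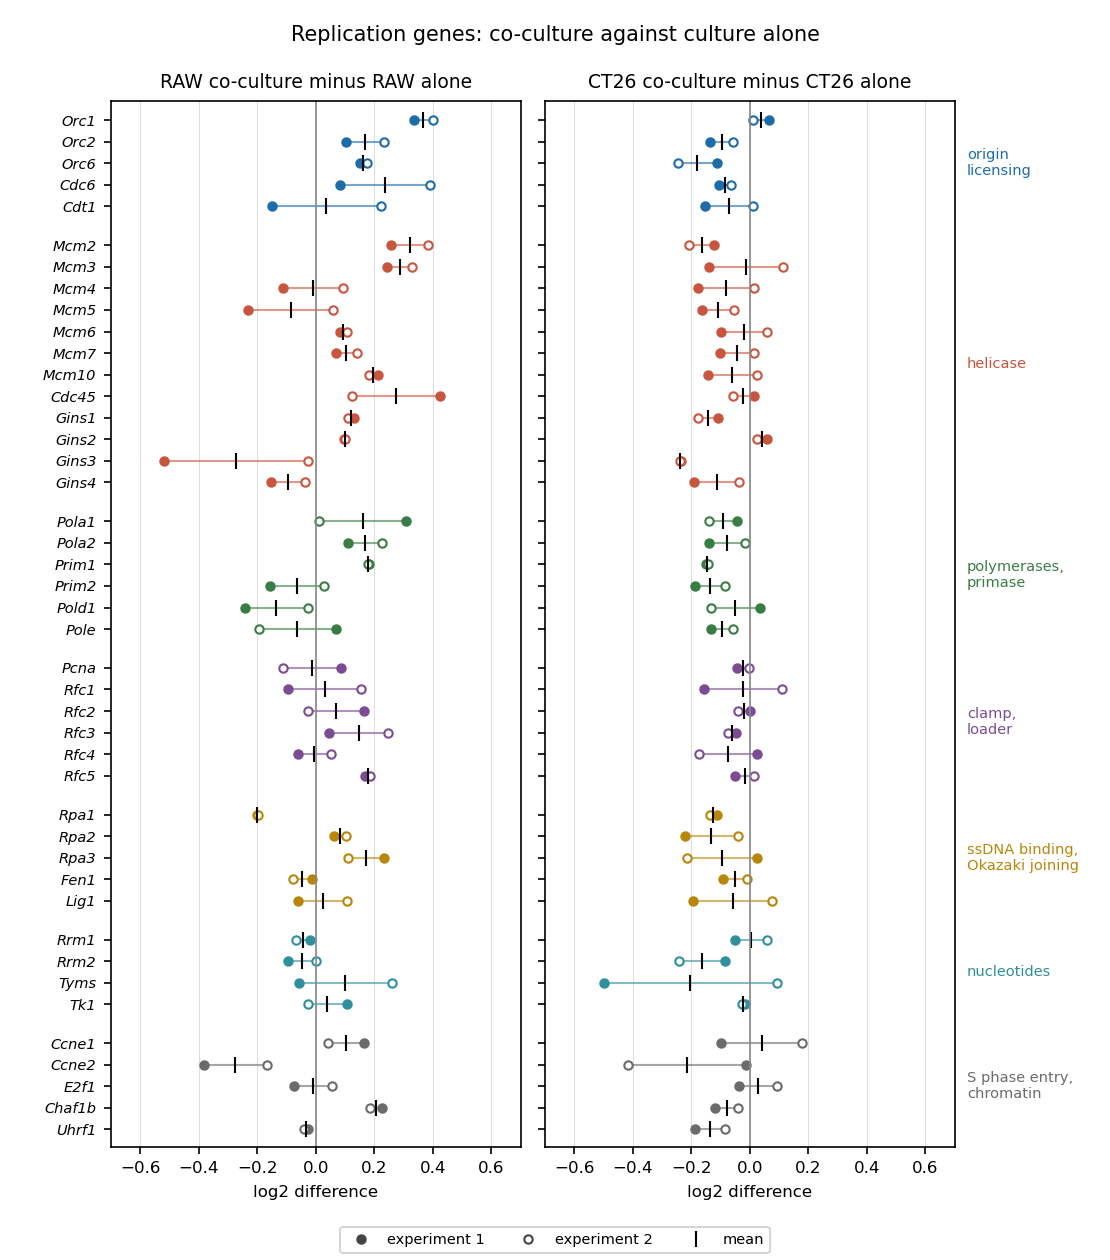
Log2 difference of each of the 43 genes between co-culture and culture alone, RAW on the left and CT26 on the right. Filled points are the first experiment, open points the second, and ticks the mean of both. The ticks lie above 0 for 27 genes in RAW and for 5 genes in CT26, and no gene passed the adjusted threshold in either line.

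The difference between the co-culture effects was tested as a contrast of its own, the RAW effect minus the CT26 effect. No gene of the list was called, with 0.00758% of all tested genes called (1 gene), and at an unadjusted p under 0.05 there were 1 gene of the list, Mcm2, and 328 of all. The blocked fits called 0 of the 43 as well, against 0.0834% and 0.743% of all genes. Mcm2 had the largest difference, 0.49 ± 0.17, with an adjusted p of 0.9998 in the fit without a block. Its adjusted p was 0.502 when both lines had 1 block in common and 0.184 when each line had its own. In the arrays of Mcm2 the difference between the lines that was present when they were grown alone was not seen in co-culture. The other genes with the largest statistic of their group differed by 0.27 ± 0.18 (Orc2), 0.33 ± 0.27 (Prim1), 0.19 ± 0.17 (Rfc5), 0.27 ± 0.31 (Rpa3), 0.31 ± 0.27 (Tyms) and 0.29 ± 0.28 (Chaf1b). The median difference over the list was 0.107, against 0.020 over all tested genes. Both effects were of opposite sign in both experiments, above 0 in RAW and below 0 in CT26, for 11 genes of the list (25.6%) and for 8.54% of all tested genes. The reverse was found for 0 genes of the list.

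More genes of the list were called between the 2 occasions than between the culture conditions. The occasion was estimated from all 8 arrays and each co-culture effect from 2 arrays per group, so the counts are of unlike precision. In a model of group and experiment, 4 genes were higher in the second experiment than in the first (Pola2, Lig1, Ccne1 and E2f1) and 8 were lower (Orc6, Cdt1, Gins1, Pola1, Pold1, Rfc4, Rpa1 and Ccne2). These 12 are 27.9% of the list, and 28.1% of all tested genes were called, 16.8% higher and 11.3% lower. Lig1 had 11.74 and 11.12 in RAW co-culture (second and first experiment), 11.63 and 11.18 in RAW alone, 11.53 and 10.85 in CT26 co-culture, and 11.45 and 11.04 in CT26 alone. In all 4 groups the second array was the higher, by 0.54 ± 0.07 on average (adjusted p = 0.00367). E2f1 followed with 9.30 and 8.68 in RAW co-culture, 9.25 and 8.75 in RAW alone, 9.89 and 9.36 in CT26 co-culture, and 9.80 and 9.40 in CT26 alone (0.51 ± 0.07, adjusted p = 0.00324). Gins1 went the other way, with 10.19 and 11.05 in RAW co-culture, 10.08 and 10.92 in RAW alone, 9.85 and 10.23 in CT26 co-culture, and 10.03 and 10.34 in CT26 alone (-0.60 ± 0.11, adjusted p = 0.011). In all 4 groups 18 genes of the list (41.9%) were lower in the second experiment and 7 (16.3%) were higher, against 21.8% and 24.9% of all tested genes.

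Different probe sets of 1 gene did not always agree about the occasion. Of the 32 genes with at least 2 probe sets above the floor, 16 had probe sets of both signs between the experiments. The share over all genes was not computed. Some of these signs rest on values close to 0, as for Uhrf1 (-0.15 and 0.002) and Chaf1b (0.09 and -0.03). Between the lines grown alone 26 of the same 32 had 1 sign. Pold1, the catalytic subunit of polymerase delta, was lower in the second experiment by its brightest probe set (-0.57 ± 0.07) and had 0.38 by the other. Cdt1 had -0.39 and 0.24, Mcm2 -0.01 and 0.51, and Mcm4 0.03 and -0.48. Others gave 1 answer, among them Gins1 (-0.60 and -0.53), Rfc4 (-0.48 and -0.56), Ccne1 (0.52 and 0.61) and E2f1 (0.51, 0.35 and 0.20). Of the 8 genes called between the experiments that have a second probe set, 4 kept 1 sign. The brightest probe sets of Mcm5, Pold1, Fen1, Rrm2 and Ccne1 bear the suffix x_at, which marks probes that may also match other transcripts. Of 13 such probe sets of the list, 10 were lower in the second experiment (76.9%, median -0.23), against 58.9% of all 1697. The array's own controls for 18S ribosomal RNA also moved with the occasion. The 5′ probe set of 18S ribosomal RNA had 6.75 and 7.68 in RAW co-culture (second and first experiment), 7.51 and 7.81 in RAW alone, 6.80 and 9.05 in CT26 co-culture, and 6.73 and 9.17 in CT26 alone. The 3′ probe set had 7.99 and 8.29 in RAW co-culture and 8.21 and 8.73 in RAW alone. In CT26 it had 8.13 and 8.78 in co-culture and 8.27 and 8.66 in cells grown alone. The part of these shifts in the genes' differences was not tested.

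**Figure D4:**
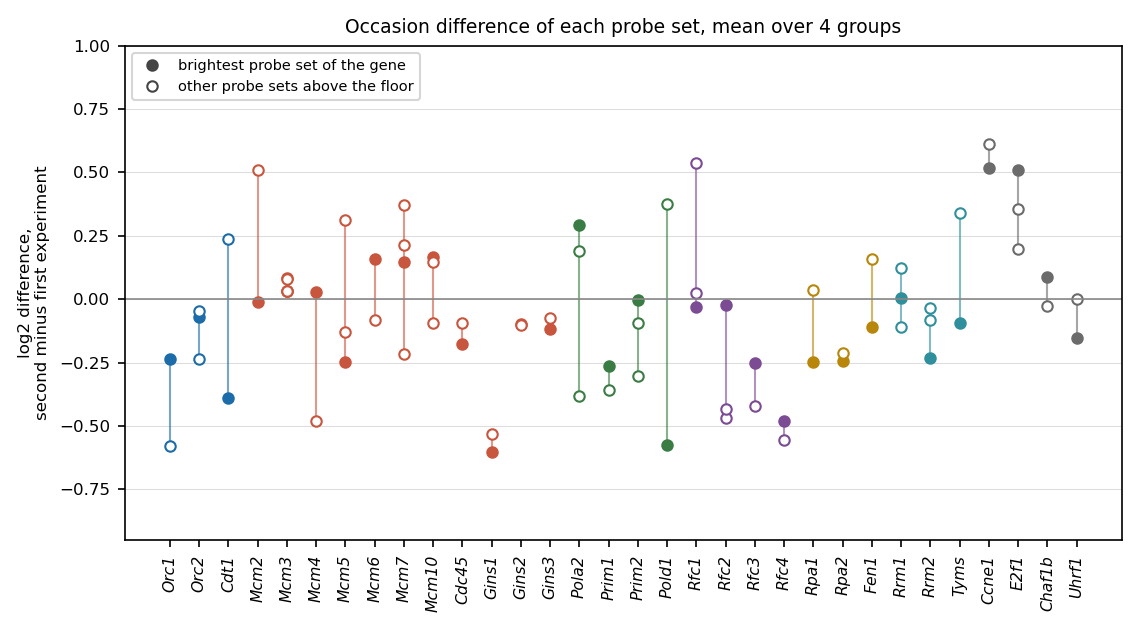
Log2 difference between the second and the first experiment, averaged over the 4 groups, for every probe set above the floor of the 32 genes that have at least 2. Filled points are the brightest probe set of a gene and open points the others, joined by a line. In 16 genes the points lie on both sides of 0, and the widest span, 0.949 log2 units, is that of Pold1.

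Further genes of the pathway and its control were read from lists of their own. Of 50 tested genes that act in replication beside the 43, 13 were higher and 3 lower in RAW when grown alone, and 17 higher and 3 lower in co-culture. That is 32% and 40% of the list, against 34.6% and 34.8% of all tested genes. The largest statistics were those of Dna2, a nuclease-helicase of Okazaki fragment processing, of E2f2 and of Mcm9, a relative of the ring proteins. Dna2 had 10.35 and 10.33 in RAW co-culture, 10.55 and 10.44 in RAW alone, 8.55 and 8.51 in CT26 co-culture, and 8.77 and 8.51 in CT26 alone (1.85 ± 0.13 grown alone, adjusted p = 4.08e-05). E2f2 was higher in RAW alone by 1.66 ± 0.15 and Mcm9 by 1.34 ± 0.18. No gene of this list was called in either co-culture comparison, and its median change was 0.05 in RAW and -0.06 in CT26.

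Some regulators of the step into S phase differed between the lines by more than any of the 43 genes. Of 8 tested drivers of G1, 3 were lower in RAW when grown alone (37.5%, against 34.6% of all tested genes, called in either direction). Ccnd2, a D-type cyclin, had 4.80 and 6.59 in RAW co-culture, 4.60 and 7.12 in RAW alone, 12.39 and 12.59 in CT26 co-culture, and 12.37 and 12.58 in CT26 alone (adjusted p = 0.000968 grown alone). The RAW arrays of the first experiment lay below the floor of 5.21 to 5.28, so no size is given for the difference. Cdk4, its kinase partner, was lower by 0.80 log2 units (-0.80 ± 0.13) and the growth regulator Myc by 2.93 (-2.93 ± 0.71). Of 19 tested brakes on S phase entry, 3 were higher and 2 lower in RAW alone (26.3%), with E2f6 at 1.58 ± 0.12, E2f7 at -1.24 ± 0.13 and the retinoblastoma relative Rbl2 at 0.88 ± 0.14. Of 23 tested mitosis genes, 4 were higher and 3 lower in RAW alone (30.4%), with Mki67 at 1.91 ± 0.12, Ccnb2 at 1.20 ± 0.11 and Bub1 at 0.73 ± 0.13. The 3 lower ones, picked after their values were seen, were Kif20a (-0.64 ± 0.16), Cdc25c (-0.55 ± 0.16) and Cenpf (-0.43 ± 0.11). Co-culture gave 0 calls in each of these lists in both lines. Between the experiments, Cdkn1a, which encodes the kinase inhibitor p21 and was picked after its values were seen, was higher in the second by 0.83 ± 0.15 (adjusted p = 0.0102). Of the 19 brakes, 3 were called higher in the second experiment and 5 lower. That is 42.1% of the list, against 28.1% of all tested genes, and the changes lay between -1.11 and 0.83.

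Over the 8 arrays, the mean of the 43 genes was 11.04 and 10.87 in RAW co-culture, 11.00 and 10.78 in RAW alone, 10.71 and 10.76 in CT26 co-culture, and 10.82 and 10.81 in CT26 alone. The genes outside the list whose level followed this mean most closely were Ung (r = 0.974), Nfkbiz (0.972), Mrps11 (0.972), Ska3 (0.970) and Ticrr (0.966), by Pearson correlation over 8 arrays. Ticrr, which acts in the start of replication, is on the list of further replication genes read above. Ung, which removes uracil from DNA, Nfkbiz, Mrps11 and Ska3 are on none of the lists used here. These correlations are descriptions over 8 arrays that share lines and experiments.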

How the data were processed

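The deposited values are log2 expression values of 45101 probe sets on 8 arrays, which the authors computed with RMA (affy), per the submitters' processing notes. No version or setting is given in the sources used here. Biotin-labelled cRNA was prepared from 5 µg of total RNA. RMA sets the arrays to 1 distribution (array medians 5.88 to 5.94), which would remove a change in total RNA per cell, and it compresses the lowest signals. Control probe sets (64) were left out, and 34945 probe sets had 1 gene symbol, 932 several and 9160 were not listed in the platform annotation. A gene was represented by its brightest probe set with 1 symbol (18193 genes). It was tested if above the 40th percentile of the array (5.21 to 5.28 log2 units) in both arrays of at least 1 group, which left 13196 genes. Precision is limited by the number of arrays.

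A model of group means over the 8 arrays was fitted in limma 3.58.1 (R 4.3.3, 4 residual degrees of freedom, no trend). Tests were two-sided, adjusted by Benjamini and Hochberg's method over the 13196 genes, with a threshold of 0.05. Errors are standard errors of the fit unless called SD. The occasion was fitted as group plus experiment. The labels' replicate numbers mark the 2 occasions, and arrays of 1 number deviated together from their group means. Across genes this correlation was 0.765 in RAW, 0.754 in CT26 and 0.484 to 0.561 across lines, so the numbers pair the samples. The 2 experiments were fitted as a block, shared by the lines or in each line, as alternatives, beside other probe sets, filters, normalizations and fits without single arrays. The genes, lists and the rule for values per array (the largest statistic of each role group in each comparison, and every call) were chosen with earlier results of these data known. Values per array of other called genes, and probe set comparisons, were added later. The scripts were tested on simulated data. No scan date was at hand.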

Additional observations from a re-analysis of the deposited data

Results flagged for a closer look

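The median log2 change of the 43 replication genes was of opposite sign in the lines in both experiments. In RAW co-culture against RAW alone it was 0.0686 in the first experiment and 0.105 in the second. In CT26 co-culture against CT26 alone it was -0.110 and -0.0402. Over all tested genes the medians had the same signs and were smaller, 0.0071 and 0.0092 in RAW and -0.0104 and -0.0113 in CT26. The difference was not tested for the list, and no single gene of it passed a test of the difference between the effects. The median of 50 other replication genes was 0.05 in RAW and -0.06 in CT26, and that of 23 mitosis genes was also 0.05 in RAW and -0.06 in CT26.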

How the results depend on the processing

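Replicate block shared by the lines and per line, in that order, the genes called numbered 6978 and 7735 between the lines alone, 7652 per line in co-culture, 146 and 470 in RAW co-culture and 11 and 98 for the difference of effects, and 19 and 24 genes of the list between the lines alone and 21 and 24 in co-culture. Both blocks left 0 calls in the list for co-culture in either line and for the difference of effects. The difference of effects gave 4 calls with a variance trend and 2 with the second brightest probe set, which gave 14 in RAW and a list median of 0.0406 there. Fits of the compared groups alone gave 4 calls in RAW and 7 genes of the list between the lines in co-culture. The list median of the difference of effects was 0.0568 after cyclic loess and 0.133 after median centring.

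By the second brightest probe set, signs reversed for Cdt1 (0.24), Pola2 (-0.38), Pold1 (0.38) and Rpa1 (0.035) between the experiments, Chaf1b (-0.18 for the difference of effects, -0.25 between the lines in co-culture) and Tyms (-0.40, in co-culture). Without single arrays, Prim1 in RAW reversed to -0.022 (without RAW co-culture 1) and -0.021 (without RAW alone 2), Tyms in RAW to -0.098 (without RAW alone 2, highest 0.30), and Rpa1 in CT26 to 0.017 (without CT26 co-culture 2, lowest -0.27) and 0.0041 (without CT26 alone 1). Fits without 1 array break the pairing. Paired by experiment, the changes were 0.180 and 0.179 for Prim1 in RAW and -0.11 and -0.14 for Rpa1 in CT26. Tyms in RAW had -0.06 and 0.26. The second brightest probe sets of Chaf1b and Tyms were close to the floor, with means of 5.56 and 5.59. The causes were not tested.

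Leaving out each array in turn, which breaks the pairing, the genes called ranged from 0 to 0 in CT26, 2 to 30 in RAW, 0 to 2 for the difference of effects, 3143 to 4488 between the lines alone and 3350 to 4471 in co-culture. The list's medians ranged from -0.101 to -0.0668, -0.0397 to 0.154, 0.00961 to 0.263, -0.0259 to 0.0896 and 0.157 to 0.293 in that order. Its called genes ranged from 2 (without CT26 alone 2; 4 without CT26 alone 1 or RAW alone 1) to 9 (without RAW alone 2) between the lines alone. In co-culture they ranged from 3 (without RAW co-culture 1; 4 and 5 without CT26 co-culture 2 and 1, 7 without RAW co-culture 2) to 10, and were 0 in the other 3 comparisons. Background correction could not be varied on RMA values.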
